A study of Mus musculus with 73 samples.

Results

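Cadherins are calcium-dependent adhesion proteins, and 89 cadherin and protocadherin genes were followed here through 73 single cochlear cells labelled as Casz1-null inner hair cells. The members are all gene rows whose symbol starts with Cdh and a number or with Pcdh, among 55291 gene rows, without the tip-link genes Cdh23 and Pcdh15 and without Pcdhgb8, which the annotation lists as a polymorphic pseudogene. They comprise 56 clustered protocadherins (13 Pcdha, 22 Pcdhb and 21 Pcdhg) and 33 genes outside those clusters.

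To ask how inner hair cell fate is kept, the zinc-finger transcription factor gene Casz1 was deleted from hair cells. The cells came from mice at postnatal day 14 with 1 Atoh1Cre allele, Casz1 flox/flox, 1 Fgf8-Flpo allele and 2 reporters at Rosa26. One reporter, 3xGFP (Ai47), is opened by Cre, which is driven from a gene of developing hair cells. The other, tdTomato, is opened by Flpo, which is driven from Fgf8, an inner hair cell gene. Doubly fluorescent cells were selected manually. All 73 cells form 1 group, wild-type cells were not analysed here, and the labels name no animal. The cells were therefore taken as 1 sample without replicates, no test was possible, and every value below describes these libraries. Libraries held 11027945 to 37183702 counts (median 17333640), and levels are given as CPM, the count divided by the library total and scaled as usual. Detection means 10 CPM or more. That level equals 111 counts for the smallest library and 372 for the largest. Casz1 reads were detected in 55 cells, and since the labels do not state which exons are deleted, these reads are no check of the knockout. The 10 hair cell markers examined were each detected in at least 37 cells, 9 of them in all 73, with Tbx2 in 61. Of the 4 outer hair cell genes examined, Slc26a5 (prestin) was detected in 51 cells, Ocm (oncomodulin) in 68, Kcnn2 in 63 and Ikzf2 in 6. No marker of supporting cells (10 genes), glia (8), mesenchyme (7) or endothelium (6) was detected in at least 37 cells, and 1, 2, 3 and 3 of them were detected in no cell. Among the glial markers, Cnp was detected in 29 cells and Sox10 in 27. The supporting cell marker Lgr5 and the mesenchymal marker Col1a1 were detected in 14 cells each. No blood (5 genes) or immune marker (9) reached 37 cells, though the immune marker C1qb was detected in 22. The immune sum was 6347 CPM in cell 5. Of 8 neuron markers, Nefl, Snap25 and Nefm were detected in 70, 68 and 64 cells, and of 7 stria markers Slc12a2 in 55. Shares carry exact Clopper-Pearson 95% intervals over cells, which cover counting error only.

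As background, classical cadherins join neighbouring cells by binding the same cadherin across the gap and hold the actin skeleton through catenins. In the mouse organ of Corti, N-cadherin (Cdh2) is known from the inner hair cell side and E-cadherin (Cdh1) from the outer hair cell side. Delta protocadherins are expressed by neurons and other polarised cells. Clustered protocadherins lie in tandem arrays, and neurons choose a small set of their promoters, so that each neuron carries its own surface identity. In the Pcdha and Pcdhg arrays each variable first exon is spliced to constant exons that the whole array shares, whereas Pcdhb genes have no constant exons.

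Pcdh7 and Cdh2 were the members detected in at least 37 of the 73 cells. Across all 27502 genes with a count, 17.8% reached that number of cells and 31.3% were detected in 1 to 7 cells. Genes without a count are left out of that base but not of the member counts. Another 14 members were detected in 8 to 36 cells, 30 in 1 to 7 cells, and 43 in no cell, of which 21 had no count in any library. Among genes outside the clusters 15 of 33 were detected somewhere, against 31 of 56 in the clusters. No share over all genes was worked out for 8 to 36 cells, for no cell or for detection in any cell. A median of 6 members was detected per cell (range 1 to 15), with the highest number in cell 38.

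**Figure D1:**
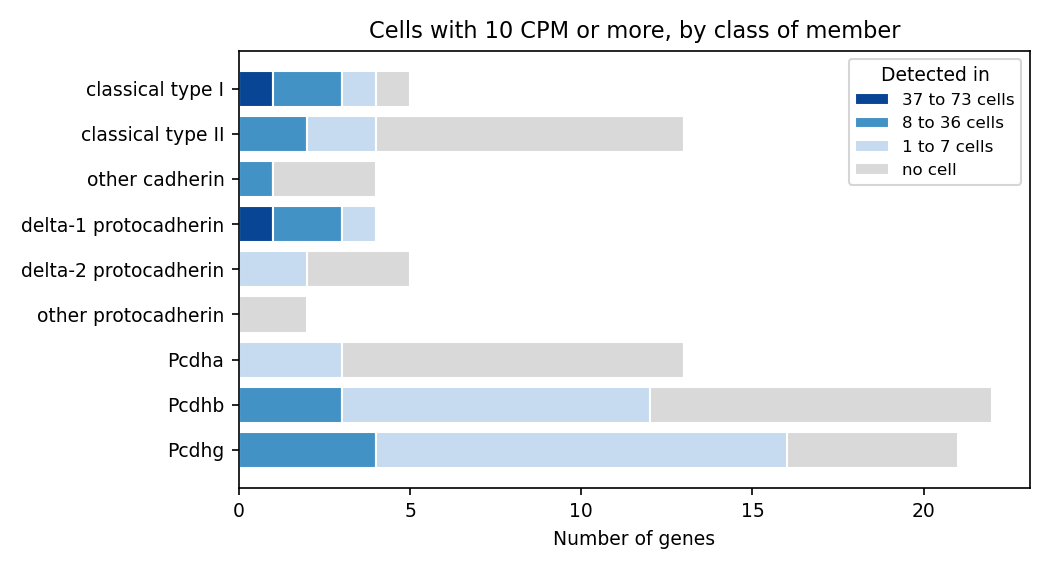
Number of member genes (x axis) in each class (y axis), shaded by the number of cells in which the gene reached 10 CPM. The darkest shade holds 1 gene of classical type I, Cdh2, and 1 delta-1 protocadherin, Pcdh7, and no delta-2 gene was detected in more than 7 cells.

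Pcdh7, a delta-1 protocadherin, was by far the most regular member. Its level was 0 CPM in the lowest cell, 171 CPM at the median and 649 CPM in the highest, cell 70. It was detected in 70 cells (95.9%, interval 88.5 to 99.1), and 64 cells held 50 CPM or more, so that high levels were the rule. Of its 10604 exon bases, 8369 lie in no other gene. The rest overlap the opposite-strand gene 4932441J04Rik, and reads there cannot be assigned without strand. Per kilobase of such unshared exon, Pcdh7 had a median of 20.4 CPM, against 1.59 for Cdh2 and 1.55 for Cdh18, the next members in the order of medians per kilobase.

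Cdh2, Cdh15 and Cdh18, 3 classical cadherins, were each detected in about every other cell, and with different distributions. Cdh2 (N-cadherin) had a median of 12.8 CPM (range 0 to 174) and was detected in 40 cells (54.8%, interval 42.7 to 66.5). Its levels were graded, with 13 cells between 1 and 10 CPM, 19 between 10 and 50 CPM and 21 above. Cdh15, known as M-cadherin of muscle, ranged from 0 to 283 CPM (highest in cell 27) around a median of 0.48 CPM. It was detected in 36 cells (49.3%, interval 37.4 to 61.3), and no cell lay between 1 and 10 CPM. The other 37 cells held less than 1 CPM, 32 of them no count, while the 36 positive cells had a median of 75.4 CPM. Positive and negative cells were thus separated for Cdh15 at this depth, as they were for Cdh13, Pcdhgb4, Pcdhb16, Pcdhb18 and Pcdhb22, which also had no cell between 1 and 10 CPM. Cdh18, a type II cadherin of the nervous system, was detected in 35 cells (47.9%, interval 36.1 to 59.96), at a median of 7.07 CPM and at most 225 CPM (cell 21). Here 12 cells lay between 1 and 10 CPM, so no gap was seen.

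Promoter windows of Pcdh7, Cdh15 and Cdh18 are shown, for a near-constant member, a member with a gap in its levels and a graded member. Each run is the RefSeq window of 250 bases before to 50 after the start (build GRCm38.p6, plus strand), with CG dinucleotides in capitals. The Cdh18 window lies inside the gene as GENCODE annotates it, from 22549022 to 23474418 on chromosome 15, and so marks a RefSeq start far downstream of that gene's first base. The Cdh15 window also lies inside its GENCODE gene, which starts at 122847966. The Pcdh7 window spans the start of its GENCODE gene at 57717967. Which start these cells used was not tested.
Pcdh7, chr5:57717831-57718130: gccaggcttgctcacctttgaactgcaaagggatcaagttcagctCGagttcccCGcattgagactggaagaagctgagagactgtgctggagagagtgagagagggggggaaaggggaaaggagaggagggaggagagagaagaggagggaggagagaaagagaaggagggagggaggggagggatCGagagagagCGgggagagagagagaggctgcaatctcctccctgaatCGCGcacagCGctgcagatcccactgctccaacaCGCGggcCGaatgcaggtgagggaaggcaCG
Cdh15, chr8:122848124-122848423: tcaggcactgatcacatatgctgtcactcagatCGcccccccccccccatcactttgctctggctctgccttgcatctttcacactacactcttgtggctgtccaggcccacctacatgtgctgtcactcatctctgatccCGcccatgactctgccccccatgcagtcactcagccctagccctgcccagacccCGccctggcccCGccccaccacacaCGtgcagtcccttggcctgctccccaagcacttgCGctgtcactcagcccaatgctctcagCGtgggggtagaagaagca
Cdh18, chr15:23036213-23036512: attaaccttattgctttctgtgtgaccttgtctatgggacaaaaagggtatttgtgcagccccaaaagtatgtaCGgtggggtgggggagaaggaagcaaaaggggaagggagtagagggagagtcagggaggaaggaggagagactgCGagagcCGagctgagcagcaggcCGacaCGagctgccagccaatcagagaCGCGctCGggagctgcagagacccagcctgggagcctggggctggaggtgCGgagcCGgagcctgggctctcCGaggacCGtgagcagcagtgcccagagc
These windows held 11, 7 and 12 CG dinucleotides for Pcdh7, Cdh15 and Cdh18. Of all 32851 promoter windows in the same table, 41.4%, 52.1% and 39.6% had at least as many. The 23 windows matched to 20 members had a median of 18 CG, against 7 over all windows. The letters TATAAA, searched on both strands, were in 4.35% of the member windows and in 13.6% of all windows, and in none of the 3 printed. The number of CG thus did not follow the order of detection among these 3 genes.

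**Figure D2:**
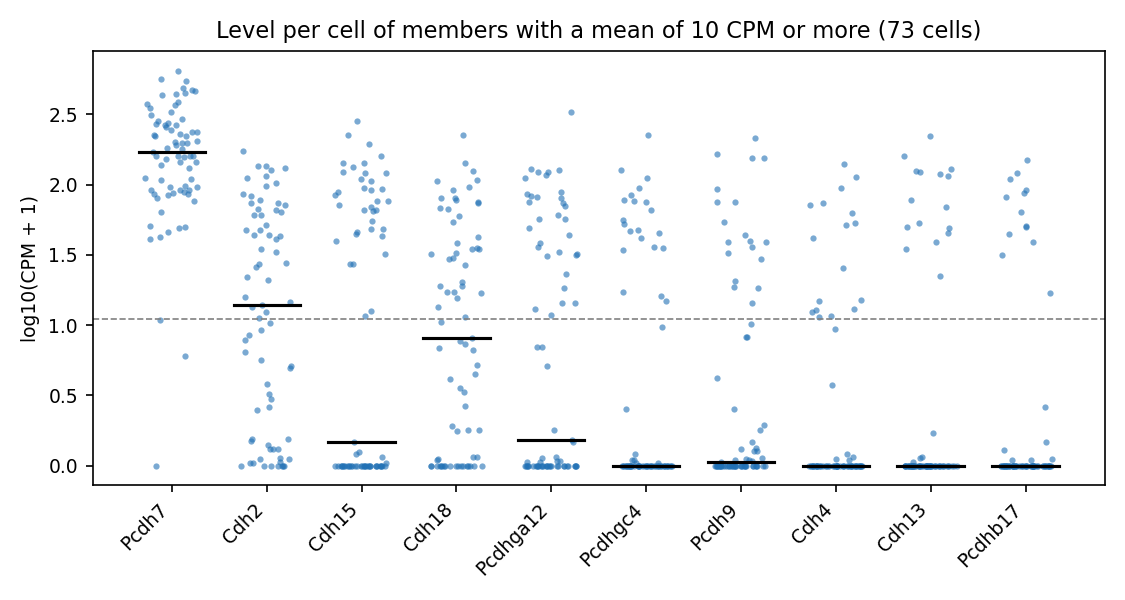
Level of the 10 members whose mean was at least 10 CPM, as log10(CPM + 1) on the y axis, in each of 73 cells (points), with the median (black line) and the 10 CPM threshold (dashed). Pcdh7 lies above the threshold in 70 cells, whereas Cdh15 and Cdh13 have no cell between 1 and 10 CPM.

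Further classical and atypical cadherins were carried by fewer cells. Cdh4 (R-cadherin) was detected in 17 cells, with a maximum of 139 CPM, and was without a count in 50. Cdh13 (T-cadherin), which is anchored to the membrane by a lipid and lacks a cytoplasmic domain, was detected in 16 cells (21.9%, interval 13.1 to 33.1), with a maximum of 220 CPM in cell 31. None of the remaining cells reached 1 CPM of Cdh13. Cdh8, a type II cadherin, was detected in 10 cells, with a maximum of 156 CPM in cell 38, and Cdh24 in 4 cells at 14.5 to 108 CPM. Counting Cdh2, Cdh15, Cdh18 and Cdh4 together, 7 cells had none, 22 had 1, 29 had 2, 12 had 3 and 3 had all 4. Cdh2 and Cdh15 were found together in 19 cells, which is 47.5% of the cells with Cdh2 and 52.8% of those with Cdh15. Each of the pairs Cdh2 with Cdh15 and Cdh2 with Cdh18, without the other 2 genes, was held by 10 cells.

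Of the 9 cadherins listed as defining cell types, Cdh1, Cdh3, Cdh5, Cdh11, Cdh19 and Pcdh12 were nearly absent. The list was made with earlier results of these data known. The other members of that list, Cdh2, Cdh4 and Cdh13, were detected in 40, 17 and 16 cells. Cdh1 (E-cadherin) was detected in 1 cell, cell 67, at 25.5 CPM, and the next highest cell had 1.21 CPM. Cell 67 also had the highest summed level of the 10 supporting cell markers, 1175 CPM against a median of 17.6 CPM, and the highest sum of mesenchymal markers, 330 CPM. Their part in the Cdh1 reads was not tested. Cdh3 (P-cadherin) had no count in any cell. Cdh5, the cadherin of endothelium, had at most 0.19 CPM and Pcdh12, also of endothelium, at most 0.12 CPM. Cdh19, a cadherin of Schwann cells, had at most 0.79 CPM, although the glial marker sum reached 498 CPM in 1 cell. Cdh11, a mesenchymal cadherin, had a count in 28 cells but passed 10 CPM in cell 40 only, at 10.7 CPM, and the mesenchymal marker sum there was 1.49 CPM. Detection in 0 of 73 cells still leaves room for a share of 4.11% by the rule of 3 counts, or 4.93% by the exact interval.

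Among the other protocadherins outside the clusters, the delta-1 genes were more often detected than the delta-2 genes. Pcdh9, a delta-1 gene, was detected in 19 cells, with a maximum of 214 CPM in cell 49. Pcdh1 was detected in 11 cells, with a maximum of 150 CPM, and a further 11 cells held between 1 and 10 CPM. Pcdh11x was confined to cells 46 and 70, at 86.5 and 104 CPM, with 0.54 CPM in the next cell. Of the delta-2 genes, Pcdh17 was found in cell 27 at 45.8 CPM and Pcdh10 in cell 46 at 37.4 CPM. Pcdh8, Pcdh18 and Pcdh19 were detected in no cell.

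Clustered protocadherins were found in most cells, a few at a time. At least 1 was detected in 64 of 73 cells, and 9 cells had none (12.3%, interval 5.80 to 22.1). The number per cell had a median of 2 (mean 2.33, SD over cells 1.79, range 0 to 8). In all, 18 cells had 1, 19 cells had 2, 10 cells had 3, 9 cells had 4 and 8 cells had 5 or more. The maximum of 8 was in cell 38, with Pcdhb16, Pcdhb17, Pcdhb20, Pcdhga7, Pcdhgb7, Pcdhga11, Pcdhga12 and Pcdhgc4. Cell 38 also had the highest number of members overall and 7 members outside the clusters. Cells with more detected genes had more clustered protocadherins, and the 2 numbers, both at 10 CPM, had a rank correlation of 0.43 (73 cells, values of 1 cell share a library). With total counts the value was -0.07, and with Slc26a5 -0.06. The part of gene detection in these numbers was not tested.

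**Figure D3:**
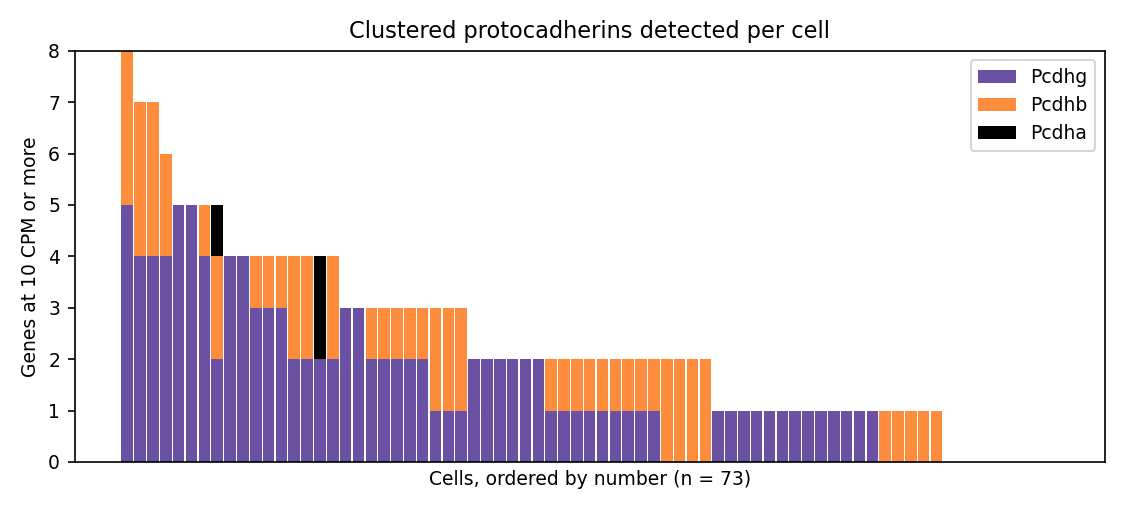
Number of clustered protocadherins at 10 CPM or more (y axis) in each of the 73 cells, ordered from most to fewest (x axis) and split by array. Pcdhg and Pcdhb make up almost every bar, and 9 cells at the right have none.

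The 3 arrays contributed unequally. A Pcdhg member was detected in 55 cells, a Pcdhb member in 38 and a Pcdha member in 2. Cells with both a Pcdhb and a Pcdhg numbered 29, cells with Pcdhg alone 25 and cells with Pcdhb alone 9. The summed level of Pcdhg had a median of 52.2 CPM (range 0 to 554), that of Pcdhb 13.0 CPM (range 0 to 315) and that of Pcdha 0 CPM (range 0 to 51.4). The highest Pcdhg sum was in cell 3, which also had the highest sum of the 8 glial markers, 498 CPM, whose part was not tested. Numbers of Pcdhb and Pcdhg per cell had a rank correlation of 0.10 over the 73 cells.

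Most sets of clustered protocadherins occurred in 1 cell only. The 64 positive cells carried 51 different sets, of which 46 occurred in 1 cell each. A set shared with another cell was held by 18 cells. How many sets would differ for other genes detected as rarely was not worked out. Sets held by several cells were mostly single genes, with Pcdhga12 alone in 7 cells, Pcdhgc4 alone in 4, Pcdhb18 alone in 3 and Pcdhb21 alone in 2. The 46 cells with 2 or more members had 45 sets, and only Pcdhb22 with Pcdhgc4 recurred, in 2 cells. In those 46 cells the most abundant gene took a median of 47.7% of the clustered counts (range 22.9 to 88.4).

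Pcdhga12 and Pcdhgc4 were the most frequent clustered genes. Pcdhga12 was detected in 32 cells (43.8%, interval 32.2 to 55.9) and had a maximum of 330 CPM in cell 3, with the next cell at 128 CPM. Only 3 cells lay between 1 and 10 CPM, and 29 had no count. Pcdhgc4, a C-type member, was detected in 21 cells (28.8%, interval 18.8 to 40.6), with a maximum of 224 CPM, again in cell 3. Together they covered 43 cells, and 10 cells had both. Pcdhgc4 was detected in 12 of the 46 cells with another Pcdhg member and in 9 of the rest of the 73 cells. How reads in the shared constant exons were counted is not stated, and their part in these levels was not tested. Pcdhgc5 was detected in 6 cells, with a maximum of 110 CPM, and Pcdhgc3 in 1.

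Within the Pcdhb genes, and within the Pcdhga and Pcdhgb genes, detection was more frequent in the later part of the array, a division chosen after the values were seen. The Pcdha, Pcdhb and Pcdhg arrays lie in that order on the plus strand of chromosome 18 (mm10), from 36930184 to 37187661, 37264938 to 37524479 and 37661793 to 37841873. Of the first 11 Pcdhb genes, Pcdhb1 to Pcdhb11, 2 were detected, Pcdhb4 and Pcdhb11, in 1 cell each. Of the last 11, Pcdhb12 to Pcdhb22, 10 were detected, in 37 cells (50.7%, interval 38.7 to 62.6) against 2 cells for the first 11 (2.74%, interval 0.33 to 9.55). All 7 genes from Pcdhb16 to Pcdhb22 were detected in 3 to 13 cells each, whereas Pcdhb12, Pcdhb14 and Pcdhb15 were detected in 1 cell each and Pcdhb13 in none. Pcdhb17 led with 13 cells and a maximum of 149 CPM, followed by Pcdhb18 with 10 cells and 199 CPM and Pcdhb16 with 8 cells and 166 CPM. Among the 18 Pcdhga and Pcdhgb genes, the last 9 (Pcdhgb4 to Pcdhga12) were detected in 42 cells (57.5%, interval 45.4 to 69.03). The first 9 (Pcdhga1 to Pcdhga7) were detected in 11 cells (15.1%, interval 7.77 to 25.4), 7 of them through Pcdhga7, the last of the 9. Besides Pcdhga12, the last 9 included Pcdhgb4 in 11 cells, Pcdhgb7 in 8, Pcdhga11 in 5, Pcdhga8 and Pcdhgb6 in 4 each and Pcdhgb5 and Pcdhga9 in 3 each. The other genes of the arrays were not divided in this way. Past Pcdhga12, Pcdhgc3 was detected in 1 cell, Pcdhgc4 in 21 and Pcdhgc5 in 6. In the Pcdha array, Pcdha7, Pcdha9 and Pcdha11 were detected in 1 cell each. Pcdha1 to Pcdha6, Pcdha8, and at the end Pcdha12, Pcdhac1 and Pcdhac2, were detected in none. These 3 detections, in 2 cells, are too few to show an order.

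**Figure D4:**
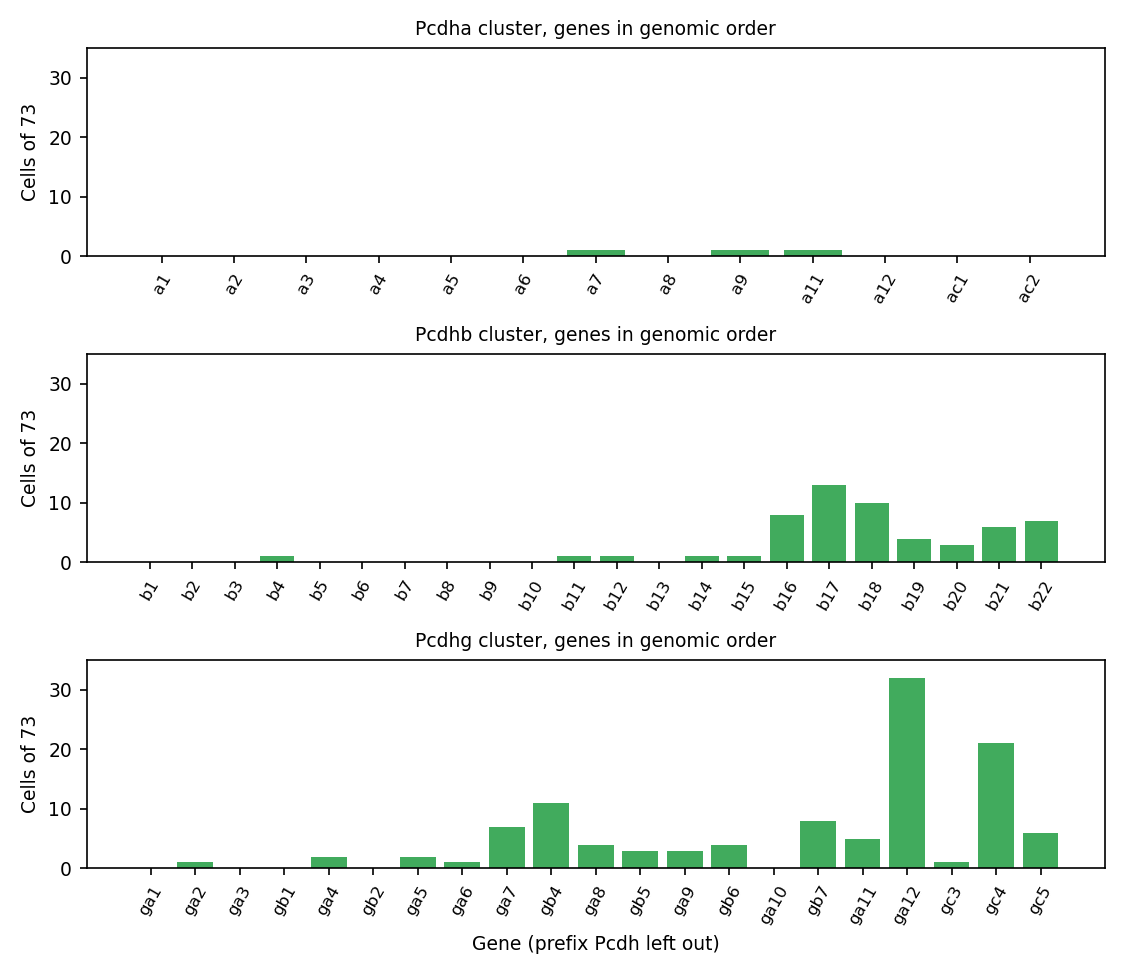
Number of cells of 73 with 10 CPM or more (y axis) for each clustered protocadherin in genomic order (x axis), by array. Detection is at 1 cell or none from Pcdhb1 to Pcdhb15 and between 3 and 13 cells from Pcdhb16 to Pcdhb22, and it peaks at Pcdhga12 with 32 cells.

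How well a gene can be counted also varied along the arrays. Of 50-base stretches in the annotated transcripts, a median of 5.80% in the first 11 Pcdhb genes occurred in another gene as well (range 0 to 9.52), against 3.34% in the last 11 without Pcdhb12 (range 1.80 to 11.3). Pcdhb12 stood apart at 64.2%, and 1107 of its 3034 exon bases lie in no other gene, the rest being covered by the opposite-strand gene Gm37446. The median exon length was 3501 bases in the first 11 and 4705 bases in the last 11. Their part in the difference was not tested. Among Pcdhg genes a median of 2601 of 4882 exon bases lay in no other gene. Pcdhga10 had no such base, since its variable exon is covered by the opposite-strand gene Gm26672, which itself reached 10 CPM in 7 cells. The 0 cells of Pcdhga10 therefore cannot be read as a lack of transcript.

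Members restricted to 1 to 7 cells were mostly clustered protocadherins. They numbered 30, that is 24 clustered and 6 other genes, and 15 of them were detected in a single cell. Of all genes with a count, 31.3% were detected in 1 to 7 cells, so restriction as such was common. That base holds only genes with a count, whereas 21 of the 89 members had none. In 18 of the 30 the highest level was 50 CPM or more. Pcdhga7 was detected in 7 cells at 31.2 to 107.6 CPM and Pcdhb22 in 7 cells at 13.2 to 66.3 CPM, with 0.82 CPM in the next cell. Pcdhb21 was detected in 6 cells at 16.98 to 96.0 CPM and Pcdhga11 in 5 cells at 16.6 to 98.9 CPM. In 4 cells each, Pcdhgb6 reached 136 CPM, Pcdhb19 132 CPM and Pcdhga8 83.7 CPM. In 3 cells each, Pcdhga9 reached 75.5 CPM, Pcdhgb5 54.5 CPM and Pcdhb20 51.7 CPM.

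Many of the members found in 1 or 2 cells had no or hardly any counts elsewhere. Pcdhb4 was at 88.4 CPM in cell 4, Pcdhb15 at 77.2 CPM in cell 61 and Pcdhb14 at 66.8 CPM in cell 52, with no count anywhere else. Pcdhga2 was at 72.5 CPM in cell 14, with 0.16 CPM in the next cell. Pcdhga4 was at 78.6 CPM in cell 7 and 10.6 CPM in cell 53, and Pcdhga5 at 31.6 and 49.5 CPM in cells 7 and 11. Pcdha7 was at 43.9 CPM in cell 9, and Pcdha9 and Pcdha11 were both in cell 59, at 27.4 and 23.9 CPM. The row Pcdha11 may hold either of 2 annotated genes of that symbol. Pcdhb12 was at 37.4 CPM in cell 18. For Pcdhb11 (30.8 CPM in cell 24), Pcdhgc3 (24.9 CPM in cell 44) and Pcdhga6 (11.8 CPM in cell 28) the next cells held 8.26, 2.91 and 3.70 CPM, so these were less sharply confined. Among restricted members, just inside the threshold stood Pcdhga4 in cell 53 and Cdh11 in cell 40, and just below it Pcdhgb6 at 9.91 CPM and Pcdhga7 at 9.82 CPM in their next cells. Of the 77 detections of restricted members, 28 (36.4%) were in 25 cells (34.2% of all cells) with 50 CPM or more of some rarely detected marker of other cell types. The share of detections in those cells thus lay close to the share of cells.

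On-or-off detection is common at these levels. Of 4855 genes with a mean from 10 to below 50 CPM, 1186 (24.4%) were detected in at least 37 cells, with a median of 27 cells and quartiles of 20 and 36. The 9 members in that range, Cdh2 among them, had a median of 21 cells (range 13 to 40), and 1 reached 37. Between 1 and 10 CPM they had a median of 2 cells, against 5 over all genes of that range. Below 1 CPM they had a median of 49 cells, against 39 over all genes.

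For the 10 members whose mean level was at least 10 CPM, rank correlations with Slc26a5 stayed below 0.4 in size, a value that 5.44% of 8618 genes reached. The highest was Pcdh7 at 0.38 and the lowest Cdh2 at -0.27, with a median of -0.10 over the 10 members and -0.03 over all genes. The other values were 0.09 for Cdh4, 0.03 for Pcdhb17, -0.01 for Cdh18, -0.05 for Pcdhgc4, -0.14 for Pcdhga12, -0.16 for Cdh15, -0.24 for Pcdh9 and -0.25 for Cdh13. For Pcdh7 the value was 0.28 in the 48 cells left when the 25 above were removed, 0.35 corrected for the number of genes with a count, 0.40 corrected for mitochondrial share and 0.43 with scran size factors. For Cdh2 it was -0.10 in the same 48 cells and -0.19 corrected for mitochondrial share. For Pcdhga12 that correction gave 0.01. All such values are over the 73 cells of 1 sample and share library and depth.

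**Figure D5:**
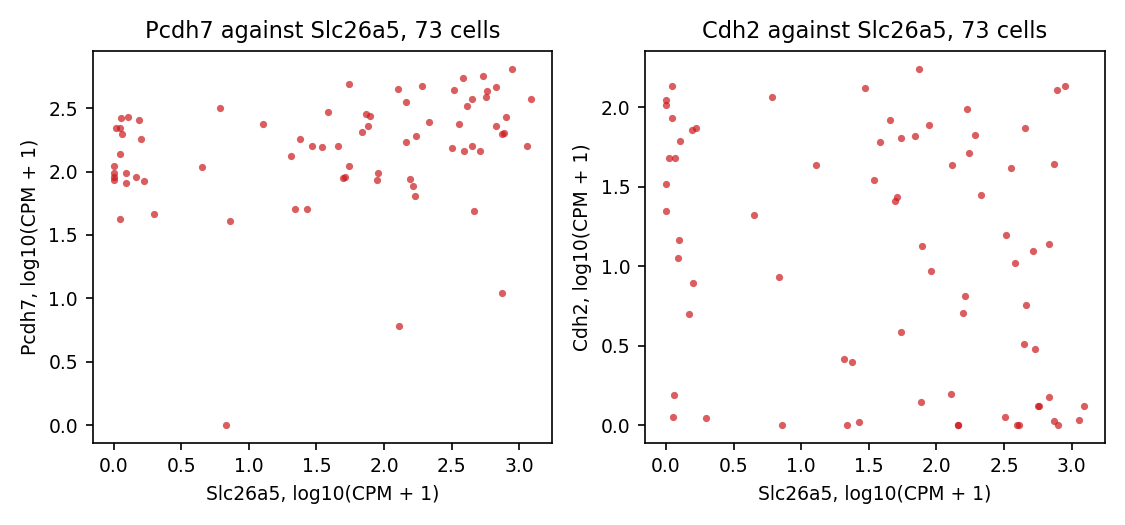
Levels of Pcdh7 (left) and Cdh2 (right) against Slc26a5 in 73 cells, each as log10(CPM + 1). The rank correlation is 0.38 for Pcdh7 and -0.27 for Cdh2, and both genes are found at high levels in cells with and without Slc26a5.

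The members varied largely apart from one another. Over 45 pairs of the 10 members the rank correlation had a median of 0.01 (range -0.18 to 0.35). The highest pair was Pcdhb17 with Pcdhgc4, which were found together in 8 cells, 61.5% of the cells with Pcdhb17 and 38.1% of those with Pcdhgc4. Cdh4 with Pcdh7 followed at 0.33 and Pcdh9 with Cdh18 at 0.25. Of the 8 cells with Pcdhgb7, 7 also had Pcdhga12, which is 21.9% of the cells with Pcdhga12. The genes most like Pcdh7 over the 73 cells were Cttnbp2nl (0.49), Inafm2 (0.47), Rnf122 (0.45), Rasal2 (0.44) and Txndc15 (0.43). For Cdh2 they were Cyp4f39 (0.51), Malat1 (0.43), Ampd2 (0.42), Ift20 (0.41) and Erc2 (0.40). For Cdh18 they were Ccsap (0.43), Cbx3 (0.41), Miga1 (0.38), Artn (0.37) and Usp33 (0.37).

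Several partners of the classical cadherins were detected in every cell. Of 56 other genes of the pathway, 18 were detected in at least 37 cells, 15 in 8 to 36, 9 in 1 to 7 and 14 in none. Of all genes with a count, 17.8% reached 37 cells and 31.3% were detected in 1 to 7. The pathway list was chosen by hand and includes the tip-link genes. Of 14 catenins and related partners, 7 reached 37 cells. Jup (plakoglobin), which links cadherins to the cytoskeleton, Ctnnd2 (delta-catenin) and Afdn (afadin), which binds nectins to actin, were detected in all 73 cells, with medians of 221, 156 and 361 CPM. Ctnnb1 (beta-catenin) was detected in 55 cells, with a median of 44.7 CPM, and Ctnna1 (alpha-catenin) in 46, with a median of 30.9 CPM. Nectin2 was detected in 61 cells and Nectin3 in 32. Nectin1 was detected in 15. All 6 desmosomal cadherins were detected in no cell, with a highest value of 0.19 CPM (Dsc2). Large cadherins of planar polarity were less frequent, with Fat4 in 33 cells, Celsr3 in 26 and Celsr2 in 18. Of the tip-link pair, Cdh23 was detected in 71 cells and Pcdh15 in 58.

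Of 13 regulators and partners of clustered protocadherins, 7 were detected in at least 37 cells, as were 17.8% of all genes with a count. Ctcf, which binds these promoters, was detected in 60 cells, with a median of 61.9 CPM. The cohesin subunits Rad21 and Smc3 were detected in 59 and 58 cells. Smchd1, a chromatin protein that represses the arrays, was detected in 47 cells and Dnmt3b, a DNA methyltransferase that methylates these promoters, in 3. Nckap1, a subunit of the WAVE actin regulator that some protocadherins recruit, was detected in 70 cells, with a median of 214.5 CPM. Ptk2b, a kinase bound by the constant domain of clustered protocadherins, was detected in 23 cells. Of the 31 pathway genes whose mean was at least 10 CPM, 1 reached 0.4 in size with Slc26a5, Cdh23 at -0.42.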

How the data were processed

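Per the labels' protocols, cDNA of each hand-picked cell was prepared by Smart-Seq HT. The authors deposited raw read counts (whole numbers) for 55292 rows and 73 cells. Tools listed in the submitters' processing notes are featureCounts 2.0.1, HISAT2 2.2.1 and StringTie 2.2.1, with build mm10. Not given in the sources used here are the annotation, the strand setting and how reads in exons shared by genes were treated. Molecules were not tagged, and PCR copies are therefore counted.

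All 73 columns matched a sample title, and no 2 libraries were alike (lowest chi-square per gene 405). The reporter row WPRE (0.0161% of counts) stayed out of the totals. Counts were divided by library totals to give CPM. Positions, exon lengths and gene overlaps are from GENCODE vM21 of the same build, and overlaps are therefore approximate for the authors' own annotation. Correlations are Spearman values over genes whose mean was at least 10 CPM. No doublet caller was run, since cells were picked by hand.

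The text names members detected in at least 37 cells, members in 1 to 7 cells that reach 50 CPM, every detected clustered member, cadherins that mark cell types, members near Slc26a5 at 0.4 or more, and the 5 genes most like each of the 3 members of highest median. Other members whose mean was at least 10 CPM, Cdh8, Pcdh1, Cdh24 and the delta-2 genes were added after their values were seen, as was the division of the arrays. Members and lists were chosen with earlier results of these data known. The detection and correlation steps were tested on simulated counts. The simulated on-or-off genes lay far above the threshold or had no count, so calls near 10 CPM were not tested. Alternatives were other thresholds, TMM and scran scaling, totals without mitochondrial genes, and thinning to the shallowest library. A further alternative left out cells with 50 CPM or more of a rarely detected marker of another cell type. Correlations were also corrected for mitochondrial share or for genes with a count. Size factors came from edgeR 4.0.16 and scran 1.30.0 in R 4.3.3, and all else from scipy 1.17.1, pandas 2.3.3, numpy 2.4.6 and matplotlib 3.10.9 under Python 3.11.15.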

Additional observations from a re-analysis of the deposited data

How the results depend on the processing

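TMM and scran scaling, totals without mitochondrial genes and thinning to the shallowest library left the main numbers within 1.5 times or within their spread. These are the numbers of regular, restricted and undetected members, the clustered number per cell and the array divisions. Other detection thresholds moved some of them. The number of restricted members stayed within that limit. It was 29 at 1 CPM, 24 at 50 CPM and 40 with any single count, against 30. At 50 CPM, 1 member in place of 2 and 11 of the 56 pathway genes in place of 18 reached 37 cells. With any single count these numbers were 6 and 30, the clustered number per cell had a median of 4 in place of 2, and 21 members in place of 43 were detected in no cell. For the array divisions at 50 CPM, the last 11 Pcdhb genes were found in 34.2% of cells, and the first 9 and last 9 Pcdhga and Pcdhgb genes in 5.48% and 31.5%. With any single count the first 11 and last 11 Pcdhb genes were found in 10.96% and 67.1%, and the first 9 and last 9 Pcdhga and Pcdhgb genes in 38.4% and 80.8%. At 1 CPM the first 9 were found in 26.03%. The later genes of both arrays stayed ahead at each of these thresholds. Cells with 50 CPM or more of a marker of another cell type were also left out, using only markers detected in fewer than 10 cells. More frequent markers, such as Sox10 and Cnp, were not used. In the 48 cells that remained, 6 of the 46 detected members were detected in no cell, namely Cdh1, Cdh11, Pcdh10, Pcdha9, Pcdha11 and Pcdhb11. There, 21 members in place of 30 were restricted. The alternatives for the array divisions and the pathway genes were chosen after seeing the data. The 10 CPM level is at least 111 counts. After thinning to the shallowest library the shares of all 46 detected members stayed within their intervals. Thinning changes sequencing depth only, and PCR copies are counted. The part of molecules lost before sequencing was not tested. Calls from a single count do depend on depth. With correction for mitochondrial share, 9 of the 10 rank correlations with Slc26a5 stayed close, and that of Pcdhga12 was 0.01 in place of -0.14. The labels name no animal, so the spread between animals is unknown.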
